A study of Drosophila melanogaster with 8 samples.

Results

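Aminoacyl-tRNA synthetases join each amino acid to its transfer RNA (tRNA), the step that supplies the ribosome with charged tRNA. Fly cells run translation in the cytosol and, separately, in the mitochondria, and all of these enzymes are encoded in the nucleus. Most amino acids have a cytosolic enzyme and a distinct mitochondrial one, whose symbol ends in -m, while some nuclear genes, such as those for glycine and lysine in humans, serve both places. The enzymes were taken by symbol alone, as the genes whose symbol is 1 or 2 amino acid abbreviations followed by RS, with or without -m. The rule found 30 genes on 32 probe sets, out of 11009 genes on 12339 probe sets that name a single gene. Of the 30 genes, 16 lacked the -m and 14 carried it. AlaRS-m, AspRS and MetRS, which have symbols of the same form, were not analysed here.

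RNA came from S2 cells, a macrophage-like line derived from Drosophila melanogaster embryos, on 8 arrays in 4 groups of 2 samples. All cells were transfected with double-stranded RNA (dsRNA), either a scrambled sequence or one against DmSTING, the STING of the fly, which in mammals senses cyclic dinucleotides, using the lipid reagent Cellfectin. At 72 h they were given c-di-GMP, a signalling dinucleotide made by bacteria, or mock transfected with Cellfectin alone, and RNA was taken 24 h later. The groups were therefore scrambled mock, scrambled c-di-GMP, DmSTING mock and DmSTING c-di-GMP, so the mock cells had also been through dsRNA and lipid, and the question of the study was how DmSTING bears on the response to c-di-GMP. Group membership follows the sample titles and source names. The genotype field goes against both in 4 samples, where it follows the treatment. The labels do not state whether replicates are separate cultures, and the p-values therefore cover the spread among the arrays at hand, which may be technical.

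Each value is a log2 unit relative to the median of its probe set over the 8 samples, so groups can be compared and expression levels, marker levels included, cannot be read. No source gives the base of the logarithm, which was taken as 2. Sting was lower in all 4 samples titled DmSTING RNAi than in the other 4, by 1.3 on the log2 scale on average (a log2 change of -1.30, SE 0.05, limma adjusted p = 0.000252). Over all genes, the difference between the replicates of a group had an SD from 0.119 (DmSTING mock) to 0.233 (scrambled c-di-GMP). The number of arrays limits the precision. In a bulk measurement, less RNA per cell and fewer cells that carry it cannot be told apart. Of the 8 plasmatocyte markers 4 were lower with c-di-GMP on average, as were 2 of 4 lamellocyte markers, 1 of 3 neuronal markers was higher, and none of 3 crystal cell or 3 fat body markers was called, where 13.3% of all genes were called lower and 7.65% higher. Among the plasmatocyte markers, vkg and Col4a1 fell mainly in the scrambled arm, with group means from 0.07 to -0.67 and from 0.08 to -0.53. In the DmSTING arm they went from 0.14 to -0.02 and from 0.05 to -0.04. NimC1 and crq fell in both arms. No gene was called for the difference between the arms. The part of such shifts in the changes given here was not tested.

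With c-di-GMP, most synthetases without the -m rose slightly, and the mitochondrial set as a whole was spread around 0. Averaged over both dsRNA arms, 9 of the 16 enzymes without -m rose, 1 fell and 6 were not called, at a limma adjusted p under 0.05 over all genes. Of the 14 with -m, 3 rose, none fell and 11 were not called. Over all 11009 genes 20.9% were called, 7.65% as higher and 13.3% as lower. The median log2 change was 0.20 for the enzymes without -m, 0.01 for those with -m and -0.03 for all genes. Rising calls made up 842 of all calls against 1461 falling ones, a balance that moved to 1089 and 1235 after quantile normalization. The synthetases then had 13 rising calls and 1 falling one, in place of 12 and 1. The changes were small, from 1.15-fold upward among the called enzymes, and none of the 30 reached 1.5-fold.

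**Figure D1:**
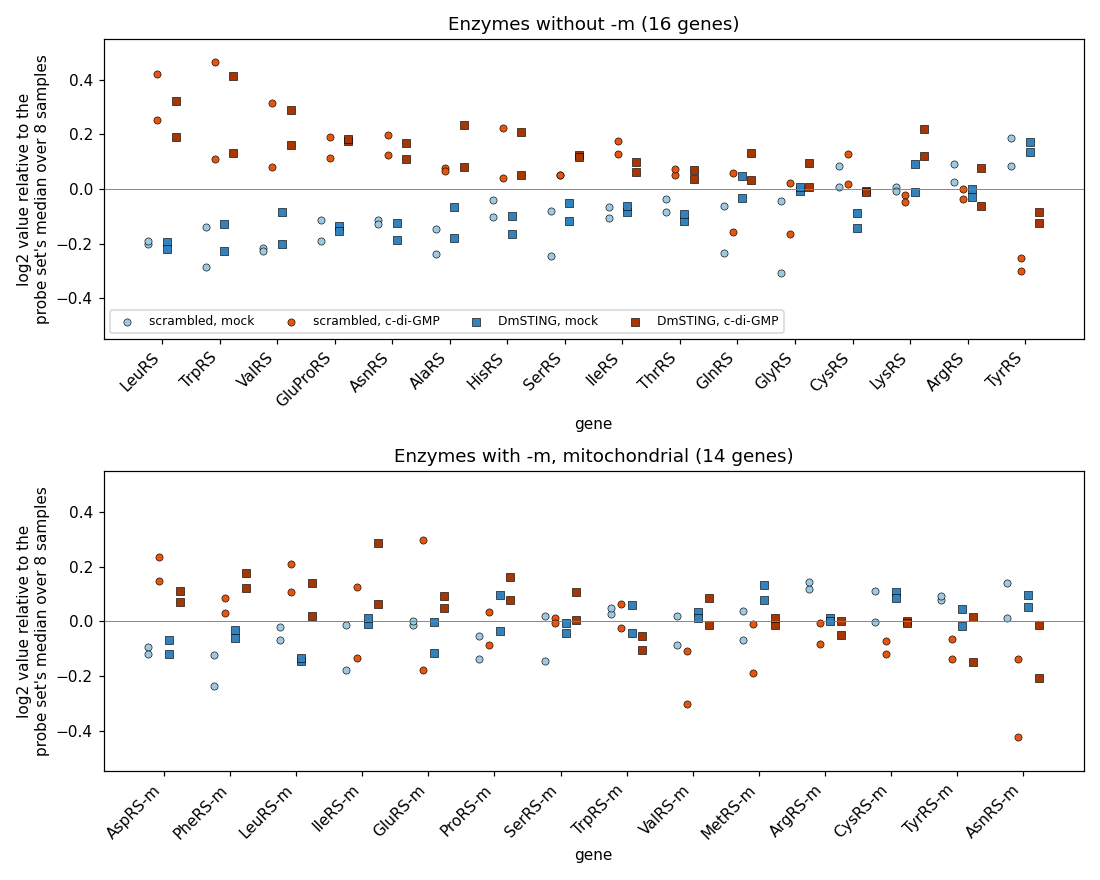
Log2 value of each synthetase in each of the 8 samples (vertical axis, relative to the median of the probe set over the 8 samples), for genes without -m (top) and with -m (bottom), in the order of their average change with c-di-GMP. Circles are scrambled and squares DmSTING dsRNA, blue is mock and orange to brown c-di-GMP, and the c-di-GMP points lie above the mock points for the 10 enzymes without -m at the left of the top panel and below them for TyrRS at its right end.

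The samples themselves show the same split. In 10 of the 16 enzymes without -m all 4 c-di-GMP samples were above all 4 mock samples, in 1 they were all below, and in 5 the samples overlapped. For the enzymes with -m these numbers were 3, 2 and 9. Over all genes, 9.71% had all c-di-GMP samples above and 15.4% had all of them below. The median over the enzymes without -m was -0.11 and -0.07 (mock) against 0.05 and 0.10 (c-di-GMP) in the scrambled arm and -0.10 and -0.08 against 0.09 and 0.15 in the DmSTING arm. That median was thus higher in each c-di-GMP sample than in each mock sample. For the enzymes with -m the 4 mock samples lay at -0.01, -0.01, 0.00 and 0.01, and the c-di-GMP samples at -0.08 and -0.01 in the scrambled arm and 0.01 and 0.08 in the DmSTING arm, on both sides of the mock samples.

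LeuRS, the cytosolic leucyl enzyme, which has also been described as a leucine sensor for TOR signalling in yeast and human cells, was among the most changed, with TrpRS. It had the larger average change of them with the TrpRS probe sets averaged, and the smaller one in several alternatives. Among these was the fit of each probe set on its own, where the set of smallest p stood for each gene (0.50 against 0.53). The log2 values of LeuRS were -0.20 and -0.19 (mock) against 0.25 and 0.42 (c-di-GMP) in the scrambled arm and -0.19 and -0.22 against 0.19 and 0.32 in the DmSTING arm. The mock samples lay within a narrow band and every c-di-GMP sample lay above it. LeuRS rose by 0.53 in the scrambled arm (SE 0.08, n = 2 per group, limma adjusted p = 0.0104), by 0.46 in the DmSTING arm (SE 0.08, adjusted p = 0.0193) and by 0.50 on average (SE 0.06, 1.41-fold, adjusted p = 0.00167). ValRS, the valyl enzyme, stood at -0.22 and -0.23, 0.08 and 0.31, -0.08 and -0.20, and 0.16 and 0.29 in the same order of groups, again with no overlap between c-di-GMP and mock. It rose by 0.42 in the scrambled arm (SE 0.10, adjusted p = 0.0354) and by 0.39 on average (SE 0.07, adjusted p = 0.00752), with 0.37 in the DmSTING arm short of the threshold (adjusted p = 0.0688). IleRS, for the remaining branched-chain amino acid, rose by 0.20 on average (SE 0.04, adjusted p = 0.0211) and passed in neither arm alone. The probe sets of IleRS, ValRS and ThrRS carry a suffix (_s_at) by which Affymetrix marks sets that can match more than 1 transcript, although the platform annotation gives each a single gene.

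TrpRS, the tryptophanyl enzyme, was measured by 3 probe sets, the only member with more than 1. Their mean was -0.29 and -0.14 (mock) against 0.11 and 0.47 (c-di-GMP) in the scrambled arm and -0.23 and -0.13 against 0.13 and 0.41 in the DmSTING arm. The c-di-GMP replicates lay far apart in both arms, yet above every mock sample. TrpRS rose by 0.48 on average (SE 0.10, adjusted p = 0.0158), with 0.50 (adjusted p = 0.0629) and 0.45 (adjusted p = 0.113) in the scrambled and DmSTING arms. The gap was widest in 1 probe set, at -0.11 and 0.67 in scrambled c-di-GMP and 0.00 and 0.58 in DmSTING c-di-GMP. The other TrpRS probe sets had closer replicates, the second again being the higher in each c-di-GMP group, and average changes of 0.53 (SE 0.06, adjusted p = 0.00172) and 0.51 (SE 0.07, adjusted p = 0.00266) when each set was tested on its own. Both were also called in each arm, at changes from 0.46 to 0.56, whereas the first was not (0.39 in either arm).

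GluProRS, a fused enzyme for glutamate and proline, and AsnRS, the asparaginyl enzyme, were called in both arms. GluProRS was at -0.11 and -0.19 (mock) against 0.11 and 0.19 (c-di-GMP) in the scrambled arm and -0.14 and -0.15 against 0.18 and 0.18 in the DmSTING arm. It rose by 0.30 (SE 0.07, adjusted p = 0.0303) and 0.32 (SE 0.07, adjusted p = 0.0322) in the scrambled and DmSTING arms. AsnRS stood at -0.11 and -0.13, 0.20 and 0.13, -0.19 and -0.12, and 0.11 and 0.17 in the same order. It rose by 0.28 (SE 0.07, adjusted p = 0.038) and 0.29 (SE 0.07, adjusted p = 0.0443). For both genes the c-di-GMP and mock samples did not overlap, and the replicates of each c-di-GMP group were close. The call of AsnRS was lost under 9 of 15 alternatives in the scrambled arm and 10 of 15 in the DmSTING arm. That of GluProRS was lost under 6 and 4 of 15.

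AlaRS, HisRS and SerRS, the alanyl, histidyl and seryl enzymes, rose on average only, by 0.27 (SE 0.06, adjusted p = 0.0167), 0.23 (SE 0.06, adjusted p = 0.0436) and 0.21 (SE 0.05, adjusted p = 0.0334). ThrRS, for threonine, had all c-di-GMP samples above all mock samples at a change of 0.14 and did not pass (adjusted p = 0.0624). GlnRS at 0.09, GlyRS at 0.08, CysRS at 0.07, LysRS at 0.05 and ArgRS at -0.03 were not called, with adjusted p between 0.401 and 0.759, and in each of them the samples overlapped. Within scrambled mock, GlyRS differed by 0.26 between its replicates, the widest such gap among the enzymes without -m. In humans, ArgRS, GlnRS, GluProRS, IleRS, LeuRS and LysRS belong to a multi-synthetase complex. Of these 6, a grouping made after the values were seen and limited to enzymes measured here, 3 rose on average and 3 were not called. Among all enzymes without -m 9 of 16 rose, and 7.65% of all genes were called higher.

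TyrRS, the tyrosyl enzyme, was the only synthetase called lower. Its log2 values were 0.08 and 0.19 (mock) against -0.30 and -0.25 (c-di-GMP) in the scrambled arm and 0.14 and 0.17 against -0.08 and -0.12 in the DmSTING arm. All mock samples were above 0 and all c-di-GMP samples below it. TyrRS fell by 0.41 in the scrambled arm (SE 0.07, adjusted p = 0.0134) and by 0.33 on average (SE 0.05, adjusted p = 0.00373), with a change of -0.26 in the DmSTING arm (adjusted p = 0.0698). TyrRS and GluRS-m, the mitochondrial glutamyl enzyme, are neighbours in the RefSeq table of assembly Release 6. GluRS-m was at 0.10 on average (adjusted p = 0.553), and its scrambled c-di-GMP replicates, -0.18 and 0.30, stood further apart than those of any other enzyme with -m. Without the second of them its average change was -0.02, and without the first it was larger than with both. The value of GluRS-m thus depended on which of these replicates was kept.

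**Figure D2:**
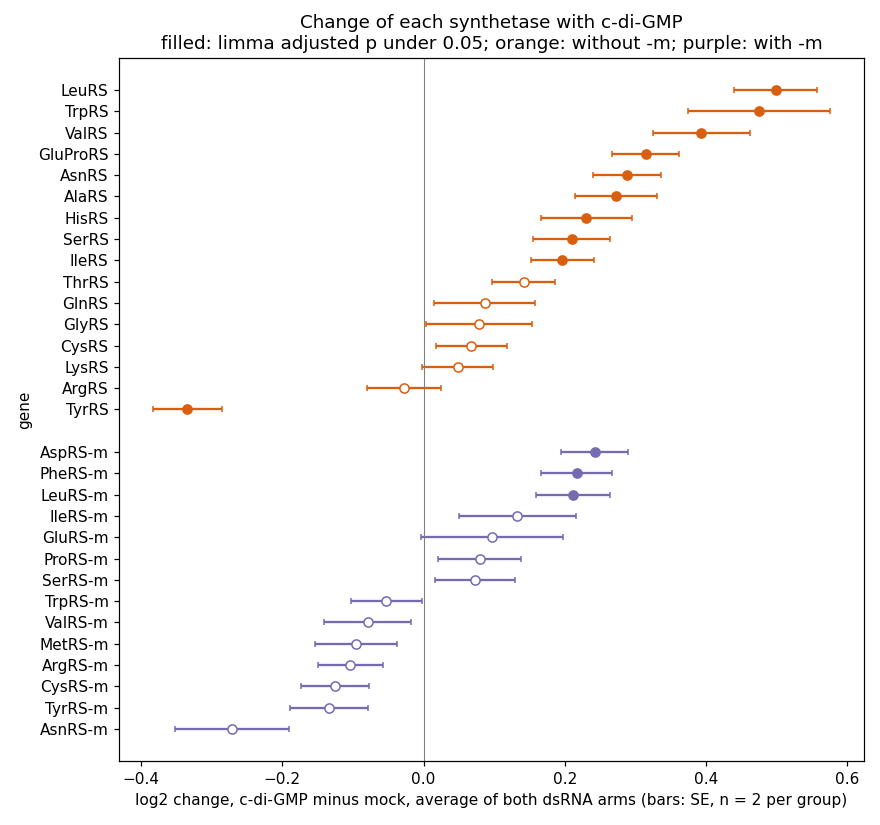
Log2 change with c-di-GMP, averaged over both dsRNA arms (horizontal axis, bars are standard errors), for each synthetase without -m (orange) and with -m (purple). Filled points passed a limma adjusted p under 0.05, 9 to the right of 0 and 1 to the left among the enzymes without -m, and 3 to the right among those with -m.

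Among the mitochondrial enzymes AspRS-m, PheRS-m and LeuRS-m rose, those for aspartate, phenylalanine and leucine. AspRS-m was at -0.10 and -0.12 (mock) against 0.15 and 0.23 (c-di-GMP) in the scrambled arm and -0.07 and -0.12 against 0.11 and 0.07 in the DmSTING arm. It rose by 0.30 in the scrambled arm (SE 0.07, adjusted p = 0.0319), where it was the only mitochondrial enzyme called, and by 0.24 on average (SE 0.05, adjusted p = 0.0119). PheRS-m rose by 0.22 (SE 0.05, adjusted p = 0.0218) and LeuRS-m by 0.21 (SE 0.05, adjusted p = 0.0293) on average. In all 3 the c-di-GMP samples were above the mock samples.

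The lowest mitochondrial enzyme was AsnRS-m, the asparaginyl one, at -0.27 on average (SE 0.08, adjusted p = 0.0539). It stood at 0.01 and 0.14 (mock) against -0.42 and -0.14 (c-di-GMP) in the scrambled arm and 0.10 and 0.05 against -0.01 and -0.21 in the DmSTING arm. The c-di-GMP samples were all below the mock samples, with a wide gap between replicates in both c-di-GMP groups. Without the second scrambled c-di-GMP replicate the change was -0.34 and was called (adjusted p = 0.0162). ArgRS-m, at -0.10 (adjusted p = 0.166), was the other enzyme with every c-di-GMP sample below every mock sample. The remaining 9 lay between -0.13 (TyrRS-m and CysRS-m) and 0.13 (IleRS-m), with adjusted p from 0.116 to 0.553.

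For 11 amino acids the symbol rule found an enzyme of each kind, with GluProRS standing for both glutamate and proline. The average change was larger in the enzyme without -m for 10 of the 11, and so it was in both arms for 9. The difference, the change without -m minus the change with -m, had a median of 0.22 on the log2 scale and ran from -0.20 to 0.56. It was widest for asparagine, where AsnRS was at 0.29 and AsnRS-m at -0.27, followed by tryptophan (0.48 and -0.05) and valine (0.39 and -0.08). For leucine both enzymes rose, LeuRS by 0.50 and LeuRS-m by 0.21. For arginine (-0.03 and -0.10) and isoleucine (0.20 and 0.13) the enzymes lay within 0.1 of each other. Tyrosine was the exception among the 11, with TyrRS at -0.33 and TyrRS-m at -0.13. Phenylalanine is not among them, since alpha-PheRS and beta-PheRS, the subunits of its cytosolic enzyme, fall outside the symbol rule. Both subunits had a smaller average change than PheRS-m, the same direction of difference as for tyrosine. These differences between the enzymes are a description of the samples at hand and carry no test.

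**Figure D3:**
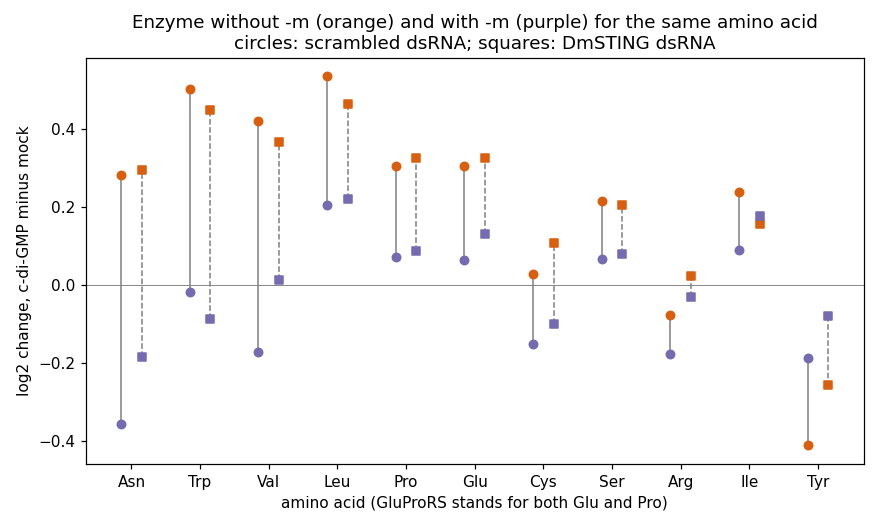
Log2 change with c-di-GMP (vertical axis) of the enzyme without -m (orange) and with -m (purple) for the same amino acid, in the scrambled arm (circles, solid lines) and the DmSTING arm (squares, dashed lines). Orange lies above purple in both arms for 9 of the 11 amino acids, isoleucine turning in the DmSTING arm and tyrosine being reversed in both.

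The 6 enzymes without -m that had no measured partner, some of which may serve both compartments, had a median of 0.11 with 2 rising. The 10 with a partner had a median of 0.25, with 7 rising and 1 falling. The synthetases also fall into class I and class II, which have unrelated catalytic folds. Among the enzymes without -m, 5 of 9 in class I rose and 1 fell (median 0.20), and 5 of 8 in class II rose (median 0.22), GluProRS counting in both. With -m, 1 of 9 in class I rose (median -0.08) and 2 of 5 in class II (median 0.08). Over all genes 7.65% were called higher and 13.3% lower, with a median of -0.03. These subsets are small, and differences between them were not tested.

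DmSTING dsRNA altered none of the 30 synthetases to the point of a call. In the scrambled arm 5 rose and 1 fell (12.1% of all genes called, 4.14% higher and 7.93% lower, a split of 456 and 873 that became 446 and 479 after quantile normalization), and in the DmSTING arm 3 rose and none fell (7.44% of all genes, 3.27% higher and 4.17% lower), but the difference of the responses was called for none. No gene at all was called for that difference by limma, with 540 of 11009 at an unadjusted p under 0.05, none of them a synthetase. Without DmSTING c-di-GMP replicate 2, 12 genes were called for it, again with no synthetase. The differences of smallest p (DmSTING minus scrambled) were 0.17 for LysRS (SE 0.10, adjusted p = 0.997) and 0.15 for TyrRS (SE 0.10, adjusted p = 0.997). The standard errors of the difference, from 0.09 to 0.20 over the members, were as large as many of the responses themselves. The change had the same sign in both arms for 27 of the 30 synthetases, against 71.9% of all genes. The arms share no samples, but same-numbered samples of their c-di-GMP groups correlated at 0.29 in their deviations from the group means.

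**Figure D4:**
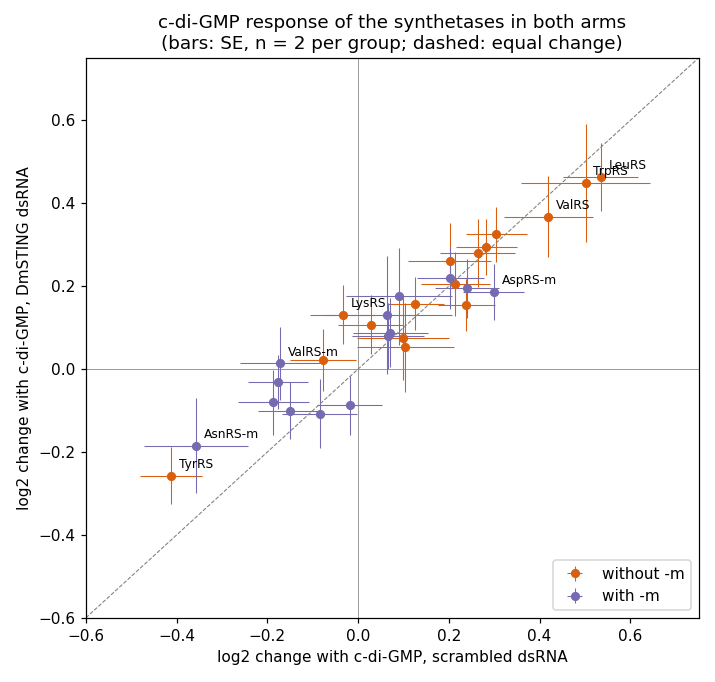
Log2 change of each synthetase with c-di-GMP in the scrambled arm (horizontal axis) and in the DmSTING arm (vertical axis), with standard errors. The dashed line marks equal change, from which the arms differed by up to 0.17 without -m (LysRS) and 0.19 with -m (ValRS-m). LeuRS at 0.53 and 0.46 and TyrRS at -0.41 and -0.26 are the outermost called ones.

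DmSTING dsRNA against scrambled dsRNA called no synthetase under mock, under c-di-GMP or on average, in a background of 0.00908% (1 gene, Sting) in each. Without DmSTING c-di-GMP replicate 2 that background was 34 genes under c-di-GMP and 12 on average, still with no synthetase. By unadjusted p under 0.05 there were none under mock, 2 without -m and 1 with -m under c-di-GMP, and as many on average. The same threshold was passed by 355, 1511 and 1380 of the 11009 genes under mock, under c-di-GMP and on average, and the 3 of 30 members of the latter comparisons are no larger a share than that of all genes. Those of smallest p were CysRS at -0.16 and ArgRS-m at -0.13 under mock (adjusted p = 0.996 for both), LysRS at 0.21 (adjusted p = 0.32) and ValRS-m at 0.24 (adjusted p = 0.327) under c-di-GMP, and LysRS at 0.12 (adjusted p = 0.39) and ValRS-m at 0.15 (adjusted p = 0.392) on average. These comparisons share samples with the c-di-GMP responses above.

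Of the relatives outside the symbol rule, AIMP3, a scaffold protein of the multi-synthetase complex, rose. It was at -0.27 and -0.19 (mock) against 0.11 and 0.23 (c-di-GMP) in the scrambled arm and -0.20 and -0.11 against 0.24 and 0.24 in the DmSTING arm, without overlap, and its average change was 0.39 (SE 0.05, adjusted p = 0.00302). The list of 6 had a median of 0.11, and its other 5 genes were not called: alpha-PheRS at 0.15 and beta-PheRS at 0.08, the subunits of the cytosolic phenylalanyl enzyme, the scaffold proteins AIMP1 and AIMP2 at 0.05, and Slimp, a seryl synthetase relative of fly mitochondria, at 0.13. GatA fell. It encodes a subunit of the mitochondrial amidotransferase that makes glutaminyl-tRNA, for which mitochondria use no synthetase of their own. Its values were 0.19 and 0.20, -0.32 and -0.32, 0.15 and 0.21, and -0.15 and -0.16 in the order of groups used above, and its average change was -0.42 (SE 0.04, adjusted p = 0.00118). In the same list of 4 measured genes, with a median of -0.16, GatB was at -0.18 and Dtd, which removes D-amino acids from tRNA, at -0.15, neither called, and Elp3, a tRNA-modifying enzyme, rose by 0.16 (adjusted p = 0.0488). The call of Elp3 was kept under 3 of 14 alternatives only.

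Factors that act before and after charging moved as follows, against the 7.65% of all genes called higher and 13.3% called lower. A list of tRNA maturation and export, of 8 measured genes, also holds emb, a general nuclear exportin that was not called. Of the 8 genes, emb included, 3 rose and none fell, with a median of 0.15. They were La, which binds the ends of new tRNA transcripts, at 0.48 (SE 0.06, adjusted p = 0.00255), the exportin Ranbp21 at 0.42 (SE 0.05, adjusted p = 0.00166) and RNaseZ, which trims the 3' end of tRNA precursors, at 0.31 (SE 0.06, adjusted p = 0.0119). Of 8 elongation factors 4 rose and none fell, with a median of 0.11. These were eEF1delta, part of the exchange factor for the carrier of charged tRNA, at 0.36 (SE 0.05, adjusted p = 0.0022), and 3 mitochondrial factors, mEFG1 at 0.28 (adjusted p = 0.0138), mEFTs at 0.20 (adjusted p = 0.03) and mEFTu1 at 0.19 (adjusted p = 0.042). The call of RNaseZ was lost without DmSTING mock replicate 2 (adjusted p = 0.061), that of mEFG1 without DmSTING mock replicate 1 (adjusted p = 0.0634), and those of mEFTs and mEFTu1 under 7 and 10 of 14 alternatives. From the list of growth transcription factors, Max and Mnt were not called, at 0.03 and -0.03, and Myc was not measured by a single-gene probe set.

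Of the average calls, those of LeuRS, ValRS, GluProRS, AsnRS and TyrRS were kept under all 14 alternatives run. The count of 13 called synthetases went down to 6 without scrambled mock replicate 1 or DmSTING mock replicate 1, in each case by the loss of AlaRS, HisRS, IleRS, SerRS, TrpRS, LeuRS-m and PheRS-m, and to 7 without DmSTING mock replicate 2, where AspRS-m, HisRS, IleRS, SerRS, LeuRS-m and PheRS-m were lost. It was 11 without scrambled mock replicate 2 (HisRS and LeuRS-m lost), 11 without scrambled c-di-GMP replicate 2 (HisRS, SerRS and LeuRS-m lost, AsnRS-m gained), 10 without DmSTING c-di-GMP replicate 1 (IleRS, SerRS and PheRS-m lost) and 9 without DmSTING c-di-GMP replicate 2 (AlaRS, HisRS, SerRS and LeuRS-m lost). Without scrambled c-di-GMP replicate 1 it stayed at 13, with SerRS lost and GluRS-m gained. The adjusted p of the lost calls ran from 0.0507 to 0.151. The calls over all genes went down as well, from 2303 to 1659 without scrambled mock replicate 1, 1189 without DmSTING mock replicate 1 and 1161 without DmSTING mock replicate 2, and lay between 1540 and 2576 without each of the others. The calls within an arm were fewer. Those of the DmSTING arm were all lost without any 1 of its own 4 libraries (adjusted p from 0.0525 to 0.3), where the calls over all genes went from 819 to 0 without either mock replicate and to 300 and 162 without c-di-GMP replicate 1 and 2, and those of the scrambled arm without scrambled mock replicate 2 (adjusted p from 0.0641 to 0.143) and, except TyrRS, without its replicate 1 (adjusted p from 0.0574 to 0.125). Without DmSTING mock replicate 1 or 2, which enter only through the shared estimate of spread, LeuRS and TyrRS remained called in the scrambled arm and the other 4 were lost (adjusted p from 0.0711 to 0.0883). Over all genes the calls of the scrambled arm went from 1329 to 426 and 221 without scrambled mock replicate 1 and 2, and to 584 without either DmSTING mock replicate.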

How the data were processed

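The authors deposited a table of log2 values for 16718 probe sets on 8 Affymetrix arrays; every probe set has a median over the samples within 1e-06 of 0. How they corrected, summarized and scaled the arrays, and with which software, is not given in the sources used here, and labelling used a 3' IVT kit per the labels' protocols. Gene names came from the platform annotation and were compared with a RefSeq table by Entrez ID (0 symbols updated, 74 IDs not found). Of the probe sets 12339 named 1 gene, 367 several and 3888 none, and 124 were controls. Probe sets of a gene were averaged, and the 11009 genes were tested in limma 3.58.1 (R 4.3.3; lmFit, eBayes) as 4 group means over 8 samples, with 4 residual degrees of freedom, in 7 contrasts, Benjamini-Hochberg adjusted per contrast over all genes. The fit was run on simulated data for the c-di-GMP contrast of the scrambled arm only. The simulated samples were independent and their changes larger than most of those given here. The average over both arms was not covered. Differences are log2 changes, and errors are standard errors of that model with n = 2 per group. A call is an adjusted p under 0.05. Members, gene lists and tests were chosen with earlier results of these data known. Named by rule were the called members of each contrast (or the 2 of smallest p), all pairs for 1 amino acid, members with several probe sets and called genes of 8 lists. These were relatives outside the rule, amidotransferase and proofreading, elongation factors, stress signalling, transporters, amino acid synthesis, growth transcription factors, and tRNA maturation. The transporters include kcc, no amino acid transporter, and the list of amino acid synthesis includes the carboxykinases Pepck1 and Pepck2. Markers of blood, fat body, neuronal and muscle cells were also listed. No muscle marker was measured by a single-gene probe set. Alternatives were quantile normalization, median centring, single probe sets, all probe sets, robust moderation, a replicate block, only the libraries compared, and each library left out. With single probe sets, the set of smallest p stood for a gene.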

Additional observations from a re-analysis of the deposited data

Results flagged for a closer look

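LysRS, the lysyl enzyme, was picked out because its samples moved in opposite directions in the 2 dsRNA arms. Its log2 values were 0.01 and -0.01 (mock) against -0.02 and -0.05 (c-di-GMP) in the scrambled arm and -0.01 and 0.09 against 0.12 and 0.22 in the DmSTING arm. Both c-di-GMP samples were thus below both mock samples in the scrambled arm and above them in the DmSTING arm. The difference of the responses was a log2 value of 0.17 (SE 0.10) and was not called by limma (adjusted p = 0.997). The changes within the arms, -0.03 (adjusted p = 0.795) and 0.13 (adjusted p = 0.355), were not called either.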

How the results depend on the processing

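No member or listed gene whose average change was called turned its sign under any alternative. With only the libraries compared, the scrambled arm had 0 calls (6 with all samples; 0 of 5 without -m and 0 of 1 with -m). With quantile normalization the DmSTING arm had 9 calls (3 before), 8 without -m and 1 with -m, a median of 0.24 without -m, and an average median of 0.24; over all genes that arm went from 819 to 1239 calls (592 higher, 647 lower). Median centring gave 9 calls in the scrambled arm (6 before), 7 without -m (5 before) and 2 with -m (1 before). IleRS, TrpRS and PheRS-m were gained, while the calls over all genes went from 1329 to 1279. Sting in the DmSTING arm, at -0.33 with c-di-GMP before, stood at 0.10 after quantile normalization; the cause was not tested. Leaving out 1 library at a time moved the calls from 0 to 6 (0 to 5 without -m, 0 to 1 with -m) in the scrambled arm, from 0 to 4 (0 to 4 and 0) in the DmSTING arm and from 6 to 13 (5 to 9 and 0 to 4) on average. The medians without and with -m ranged from 0.16 to 0.25 and -0.095 to 0.033, from 0.16 to 0.21 and 0.016 to 0.096, and from 0.18 to 0.23 and -0.03 to 0.03. The comparisons of dsRNAs and the difference of responses gave 0 called members under all alternatives. The main model did not pair samples by replicate number. Same-numbered samples of different groups correlated in their deviations at 0.01 to 0.29, the highest value being that between scrambled c-di-GMP and DmSTING c-di-GMP. With the replicate block 7, 3 and 13 members were called in the scrambled arm, the DmSTING arm and on average, with TrpRS gained in both arms and AsnRS lost in the DmSTING arm. Over all genes, counts in the scrambled arm fell from 1329 to 141 with only the libraries compared. Centring leaves no measure of signal over background.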

Other observations

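Genes of amino acid supply and of amino acid stress signalling did not move as a block with c-di-GMP. Of 15 measured genes of an amino acid synthesis list 2 rose and 4 fell on average over both dsRNA arms (limma adjusted p under 0.05). The median log2 change was -0.10. The list and its counts include the phosphoenolpyruvate carboxykinases Pepck1 and Pepck2, which are no enzymes of amino acid synthesis. Over all genes 7.65% rose and 13.3% fell in this comparison, which is the background of each count given here. Gs1, a glutamine synthetase, fell by 1.53 (SE 0.15, adjusted p = 0.000897), Pepck1, a phosphoenolpyruvate carboxykinase, by 0.73 (SE 0.10, adjusted p = 0.00246), Got2, an aspartate aminotransferase, by 0.32 (adjusted p = 0.00927), and P5cr-2, of proline synthesis, by 0.31 (adjusted p = 0.0185). Nmdmc, a mitochondrial folate enzyme, rose by 0.41 (SE 0.07, adjusted p = 0.00897) and AsnS, asparagine synthetase, by 0.25 (adjusted p = 0.0394). The call of AsnS was lost under 7 of 14 alternatives and that of P5cr-2 under 4.

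Of 11 genes of amino acid stress signalling 2 rose and 2 fell, with a median of -0.04. REPTOR-BP, a transcription factor that acts when TORC1 is low, fell by 1.36 (SE 0.07, adjusted p = 0.000292) and Sesn, the sestrin, by 0.27 (adjusted p = 0.012). The TORC1 inhibitor scyl rose by 0.74 (SE 0.07, adjusted p = 0.000944) and the eIF2alpha kinase PEK by 0.25 (adjusted p = 0.0126). The call of Sesn was lost without DmSTING mock replicate 1 (adjusted p = 0.0643) and that of PEK without DmSTING mock replicate 2 (adjusted p = 0.0695). crc, the fly ATF4, was at -0.09 and the amino acid-sensing kinase Gcn2 at -0.04, neither called. Of 8 genes of a transporter list, which besides amino acid transporters holds kcc, a potassium-chloride cotransporter, JhI-21 rose by 0.23 (adjusted p = 0.0174) and slif fell by 0.27 (adjusted p = 0.0167), each call lost under 4 of 14 alternatives, and the median of the list, kcc included, was 0.03.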
